A study of Mus musculus with 4 samples.

Results

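Ddit4, the sestrins Sesn1 and Sesn2, the TSC subunits Tsc1 and Tsc2, the kinase Mtor with its partners Rptor and Rictor, and the mTOR substrates Eif4ebp1 and Rps6kb1 were followed in mouse liver over adult life. Members were taken by gene symbol, from probe sets annotated to a single symbol among these 10. By this rule 9 of the 10 genes were measured, out of 18193 genes in all, and Rps6kb1 was not analysed here. All livers were from males of the inbred strain C57BL/6J that ate a low-fat diet ad libitum, at 4, 8, 13 or 21 months of age. RNA from 6 livers per age was combined into 1 pool and hybridised to 1 microarray, so the groups are 4 single arrays that share strain, sex and diet. With 1 pool per age the spread between mice is unknown, no difference between ages could be tested, and what follows compares pools by size alone.

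mTOR is a protein kinase that couples cell growth to nutrients, insulin and energy. With raptor it forms mTORC1, which promotes protein and lipid synthesis and restrains autophagy, and with rictor it forms mTORC2, which phosphorylates AKT. The TSC1-TSC2 complex switches off the small GTPase Rheb and so keeps mTORC1 inactive, and the products of Ddit4 (also called REDD1) and of the sestrin genes are stress-induced proteins that lower mTORC1 activity upstream of it. In liver the pathway follows feeding and fasting. Much of its control is by phosphorylation and by movement of proteins within the cell, which an array of mRNA does not measure.

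Ddit4 and Sesn2 are both known as stress-inducible inhibitors of mTORC1, but in these livers the Ddit4 mRNA level differed between ages and that of Sesn2 hardly did, so the sequences before both genes are shown. They are the 250 bases upstream of the annotated start, 5′ to 3′ on the gene's strand, from RefSeq in the GRCm38.p6 build. Ddit4 lies on the minus strand at chr10:59951771-59952020 and Sesn2 on the minus strand at chr4:132510457-132510706. Capitals mark matches, on either strand, to the hypoxia response cores ACGTG and GCGTG, the CCAAT box CCAAT and the GC box GGGCGG.
Ddit4: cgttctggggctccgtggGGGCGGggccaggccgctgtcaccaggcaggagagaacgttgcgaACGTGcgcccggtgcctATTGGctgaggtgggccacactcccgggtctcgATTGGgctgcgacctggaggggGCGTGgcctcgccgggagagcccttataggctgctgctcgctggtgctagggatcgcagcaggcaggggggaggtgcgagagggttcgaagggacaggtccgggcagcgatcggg
Sesn2: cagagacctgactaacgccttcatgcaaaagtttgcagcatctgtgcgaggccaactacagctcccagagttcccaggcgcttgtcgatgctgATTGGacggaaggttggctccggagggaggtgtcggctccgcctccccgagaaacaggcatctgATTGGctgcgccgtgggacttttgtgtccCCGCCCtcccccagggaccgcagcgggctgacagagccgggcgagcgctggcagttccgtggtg
Both windows held 2 CCAAT boxes in the reverse orientation, at -170 to -166 and -137 to -133 in Ddit4 and at -157 to -153 and -93 to -89 in Sesn2, counted from the start. Both also held 1 GC box. The hypoxia response cores were matched in Ddit4, as ACGTG at -187 to -183 and GCGTG at -115 to -111, and had no match in Sesn2. They were not particular to Ddit4 among the listed genes. Of the 10 windows of listed genes 2 held ACGTG, those of Ddit4 and Rptor, and 7 held GCGTG. Rptor held both cores, and its level had a range of 0.11 over the 4 ages. The part of any motif in the level of a gene was not tested. These motifs are common. Among 32851 promoter windows of the same length 33.8% held CCAAT, 32.7% GGGCGG, 16.6% ACGTG and 28.2% GCGTG. No match was found in the 10 windows of the 9 listed genes that had one for TATAAA (12.4% of all windows), the cAMP response element TGACGTCA (1.55%), the C/EBP-ATF element TGATGNAA (3.45%), the palindromic glucocorticoid response element (0.225%) or the FoxO element GTAAACA (3.17%). None of these motifs overlapped another inside the printed windows. A match is a description of the letters and not a measured binding site.

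The values are log2 levels, so a difference of 1 is 2-fold, and levels are compared within a probe set and not between genes. The array medians were between 3.73 and 3.76. The arrays resembled each other closely, with Pearson's r between 0.994 and 0.996 over their probe sets (correlated measurements, not replicates). Albumin, the defining hepatocyte product, was at 13.49, 13.43, 13.49 and 13.48 at 4, 8, 13 and 21 months, near the top of the scale of 13.7. Genes with a mean level of at least 3.74, the median over probe sets, were kept, which left 11587 genes, among them all 9 members. The members had 25 probe sets, of which 18 were above that level. As a measure of error within the arrays, the differences given by 2 probe sets of the same gene were compared for 4796 genes. At 8 vs 4 months they disagreed by a median of 0.12 and by up to 0.40 in 95% of the genes, and the other pairs of ages were alike, with medians of 0.11 to 0.13. This covers only error that differs between probe sets of a gene. Error that the probe sets of an array share, as from pooling, labelling or hybridisation, is not covered, nor is the variation between mice.

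Ddit4 was the member whose level differed most, through a low value at 8 months. It was at 7.10 at 4 months, 5.59 at 8 months, 6.84 at 13 months and 7.27 at 21 months. The 8-month pool alone was low, and the other 3 ages lay within 0.43 of each other. At 8 months Ddit4 was at 5.59, against 7.10 at 4 months, a difference of -1.51 or 2.85-fold lower, and no kept gene had a lower difference. Between the oldest and the youngest pool the difference was 0.17, which is less than the 95% bound of probe set disagreement of 0.42.

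The return of Ddit4 came between 8 and 13 months. It was at 6.84 at 13 months, against 5.59 at 8 months, which is 2.38-fold higher, and 5 of the kept genes were higher by more. At 21 vs 13 months it was higher by 0.43, or 1.35-fold, close to the bound of 0.42 for probe set disagreement, and 375 genes were higher by more. At 13 vs 4 months it stood at -0.26. At 21 vs 8 months it was 3.20-fold higher. The comparisons with 8 months share that array, so a deviation of this pool enters 8 vs 4 with one sign and 13 vs 8 and 21 vs 8 with the other. Ddit4 had a single probe set, so no other probe set of the array checks these values. Over the 4 ages its range was 1.68, and 21 kept genes, Ddit4 among them, had a range as large. The median range was 0.22.

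**Figure D1:**
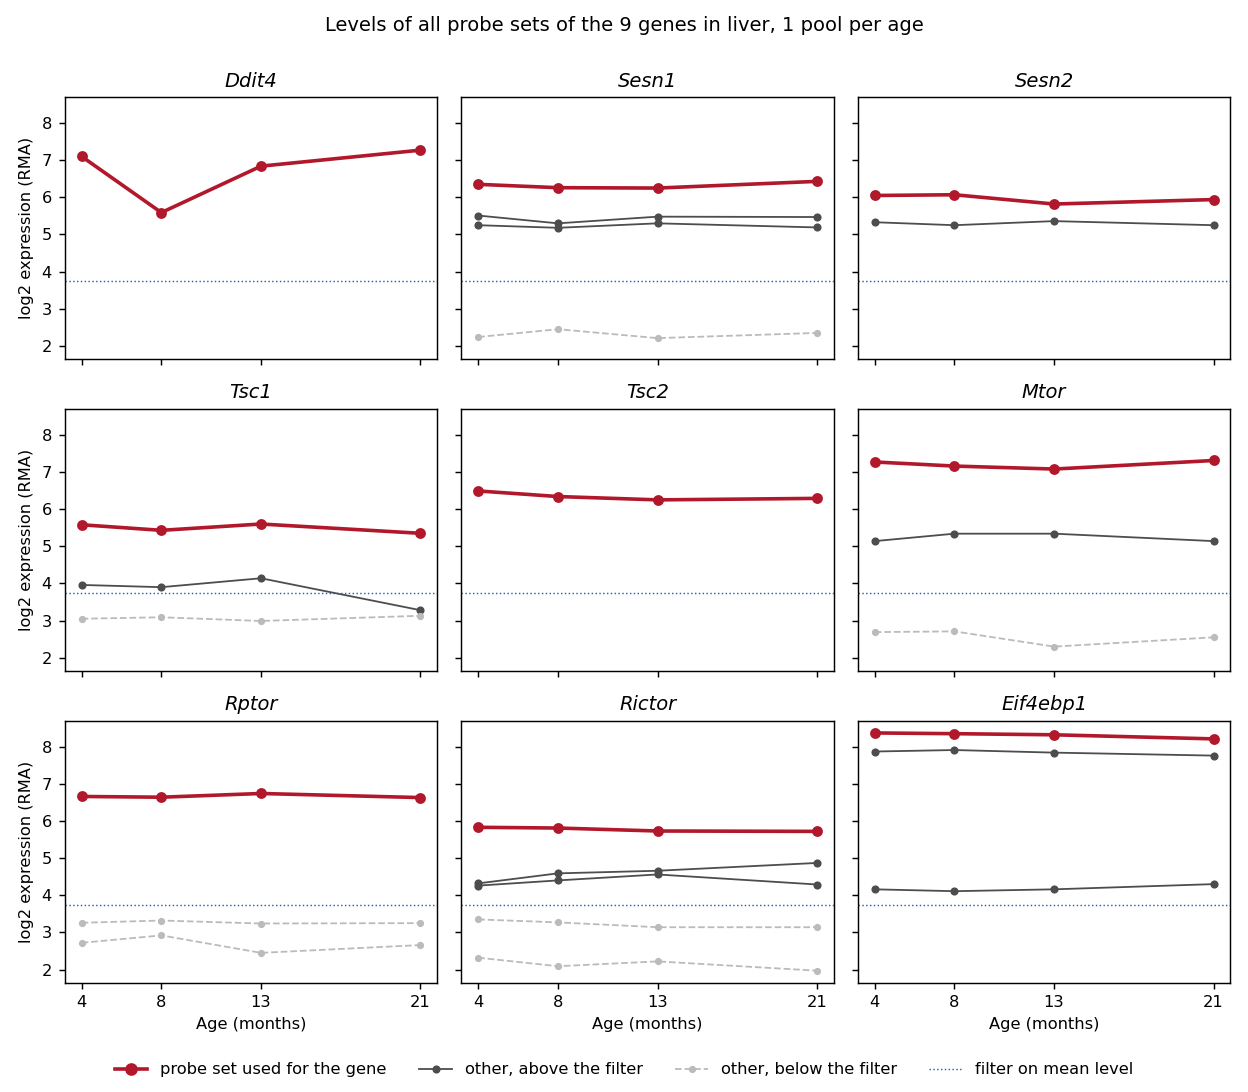
Each panel shows the log2 level of every probe set of a gene (y axis) against age in months (x axis), with 1 pool of 6 mice per point and no error bars because there are no replicate arrays. Red lines are the probe set used for the gene, dark grey lines are other probe sets whose mean is above the filter of 3.74 (blue dotted line) and dashed light grey lines are those below it. Ddit4 dips to 5.59 at 8 months, while the red lines of the other 8 genes stay within 0.25 over the 4 ages.

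Sesn1 and Sesn2 differed little between ages. The sestrins bind the GATOR2 complex and hold back the amino acid signal to mTORC1, Sesn2 being known as a leucine sensor, and both are targets of p53. Sesn1 was at 6.35, 6.26, 6.25 and 6.43 at 4, 8, 13 and 21 months. Its other 2 probe sets above the filter were at 5.51, 5.30, 5.48 and 5.47 and at 5.25, 5.18, 5.30 and 5.19. All 3 were slightly lower at 8 than at 4 months, by 0.07 to 0.21, and they did not share a direction at 21 vs 4 months, with differences of 0.08, -0.04 and -0.06. Sesn2 was at 6.05, 6.07, 5.82 and 5.94, which put the 13-month pool lowest, at -0.25 against 8 months. The other probe set of Sesn2 had its highest value at 13 months, with 5.33, 5.25, 5.36 and 5.25, so the low value at 13 months was not seen by both. At 21 vs 4 months the 2 probe sets of Sesn2 gave -0.11 and -0.08.

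Tsc1 and Tsc2 were lower in the oldest than in the youngest pool by small amounts in the probe sets used. Tsc1, which encodes hamartin and stabilises the complex, was at 5.58, 5.43, 5.60 and 5.35. The 21-month pool was the lowest, at -0.25 against 13 months and -0.23 against 4 months. A dimmer probe set of Tsc1 had the same order at 21 months with a larger size. It read 3.96, 3.90, 4.14 and 3.28, which is -0.86 at 21 vs 13 months and -0.68 at 21 vs 4 months, but its 21-month value lay below the filter of 3.74. The remaining probe set of Tsc1 was below the filter at all ages, at 2.99 to 3.13. Tsc2, which encodes tuberin, the GTPase-activating subunit, was at 6.49, 6.34, 6.25 and 6.29. Its 4-month pool was the highest, and the differences were -0.15 at 8 vs 4 months and -0.20 at 21 vs 4 months, from a single probe set. The differences of the probe sets used for Tsc1 and Tsc2 were smaller than the 95% bounds of probe set disagreement.

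Mtor was nearly level over the ages, and its probe sets disagreed on the order of the pools. The brighter probe set was at 7.27, 7.16, 7.08 and 7.31, lowest at 13 months. A second one, at 5.14, 5.34, 5.34 and 5.14, was highest at 8 and 13 months. At 21 vs 4 months they gave 0.04 and 0.00. The last one lay below the filter, at 2.30 to 2.71.

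Rptor and Rictor encode the subunits that define mTORC1 and mTORC2. Rptor was at 6.66, 6.64, 6.74 and 6.63, with a range of 0.11, and its other 2 probe sets were below the filter. Rictor was at 5.83, 5.81, 5.73 and 5.72 by its brightest probe set, also a range of 0.11, and the difference at 21 vs 4 months was -0.11. Of its 5 probe sets, another ran the other way. It was at 4.32, 4.59, 4.66 and 4.87, higher at every step, with a difference of 0.55 at 21 vs 4 months. A further one above the filter was at 4.26, 4.40, 4.56 and 4.29, highest at 13 months, and the last 2, below the filter, were lower at 21 than at 4 months by differences of -0.21 and -0.35. The direction for Rictor thus depends on the probe set, and the files do not say which transcript each one detects.

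Eif4ebp1 encodes 4E-BP1, which binds the cap-binding factor eIF4E and blocks translation until mTORC1 phosphorylates it. It was at 8.37, 8.35, 8.32 and 8.21, lower at each step and by -0.16 at 21 vs 4 months. The probe set used bears the suffix _x_at, which on this kind of array marks probes that may also match other transcripts. The second probe set, without that suffix, was at 7.87, 7.91, 7.84 and 7.76, with -0.11 at 21 vs 4 months. The dimmest one went the other way, at 4.16, 4.11, 4.16 and 4.30. These differences lie within the disagreement between probe sets.

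Members were counted at a fixed size of 1.5-fold, by the probe set used for each gene. Ddit4 was then the only member of the 9 past it in any pair of ages. The dimmer probe set of Tsc1 above the filter was also past it, at -0.86 for 21 vs 13 months. It was at -0.68 for 21 vs 4 and -0.62 for 21 vs 8 months. At 8 vs 4 months 1 of 9 members was at least 1.5-fold lower, where 0.354% of all kept genes were, and 0 were higher (0.501% of kept genes). At 13 vs 8 months 1 of 9 was higher (0.716%) and 0 lower (0.362%), and at 21 vs 8 months 1 of 9 was higher (2.66%) and 0 lower (0.699%). At 21 vs 13 months 0 of 9 were past it in either direction (1.47% higher and 0.457% lower), nor at 21 vs 4 months (2.11% and 0.423%) or 13 vs 4 months (0.837% and 0.457%). With a lower size of 0.32 on the log2 scale, 1 of 9 members, Ddit4, was higher at 21 vs 13 months, where 6.12% of kept genes were, and 0 were lower (3.44%). Without Ddit4 the other 8 members had medians of -0.055 at 8 vs 4, -0.055 at 13 vs 8, 0.015 at 21 vs 13 and -0.11 at 21 vs 4 months, where the medians over all kept genes were 0.00, 0.01, 0.01 and 0.01. At 8 vs 4 months 7 of these 8 were lower and 1 higher, where 5641 of 11587 kept genes were lower. Those differences, from -0.15 to 0.02, were inside the bound of 0.40 for probe set disagreement. For Sesn2, Mtor, Rictor and Eif4ebp1 another probe set above the filter had the other sign in that pair. At 21 vs 4 months 6 of these 8 were lower, where 5237 of 11587 kept genes were, and 2, Sesn1 and Mtor, higher. The differences, from -0.23 to 0.08, were inside the bound of 0.42 for probe set disagreement. For Sesn1, Rictor and Eif4ebp1 the sign at 21 vs 4 months depended on the probe set. The range over the 4 ages of the other 8 was 0.11 to 0.25, around the median of all kept genes.

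**Figure D2:**
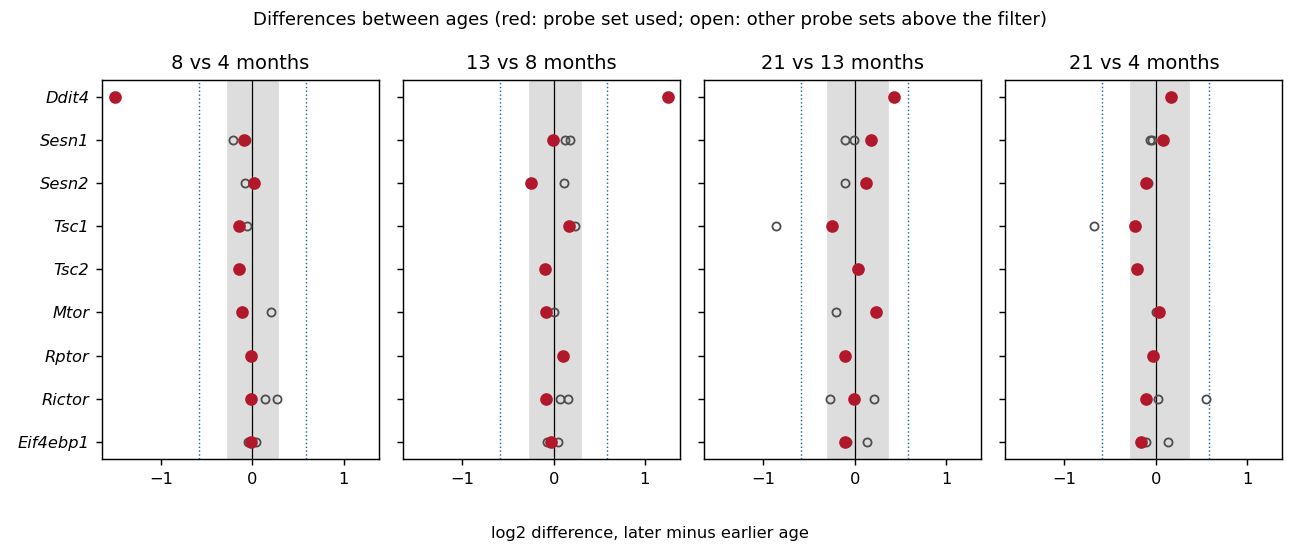
Each panel is a pair of ages, and the x axis is the log2 difference, later minus earlier age, for the 9 genes on the y axis. Red points are the probe set used, open circles other probe sets above the filter, the grey band runs from the 5th to the 95th percentile of all 11587 kept genes and blue dotted lines mark 1.5-fold. Ddit4 is outside the band in the first 3 panels, at -1.51 in the first and 0.43 in the third, and inside it at 0.17 in the last, and the other red points lie inside the band in all 4.

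Few genes shared the low value of Ddit4 at 8 months. A rule chosen after the values of Ddit4 were seen asked for genes at least 1.5-fold lower at 8 months than at each of the other 3 ages, and 9 of 11587 kept genes met it (0.0777%). By the gap to the next lowest age Ddit4 ranked 2 of these 9, between Marco, a scavenger receptor of macrophages, with 1.46 and Gbp2b, a guanylate-binding protein, with 1.16. The other 6 had gaps between 0.60 and 0.77.

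The profiles nearest to that of Ddit4 were measured by the distance between log2 levels over the 4 ages, each gene centred on its own mean. The nearest 5 of 11586 genes were Clec4a3, Cyp2b10, Usp18, Fpr2 and Hcls1, at distances of 0.568 to 0.633, where a gene with no difference between ages would lie at 1.318. Of the 11586 genes, 5752 lay nearer than that. All 5 also met the rule of a low 8-month value above, so both descriptions rest on the same array. Clec4a3, a C-type lectin of myeloid cells, was at 4.11, 3.34, 4.45 and 4.86 at 4, 8, 13 and 21 months. Cyp2b10, a cytochrome P450 of hepatocytes induced through the receptor CAR, was at 7.79, 6.82, 7.43 and 7.70. Usp18, an interferon-induced protease, was at 5.70, 4.97, 5.82 and 6.58. Fpr2 encodes a formyl peptide receptor and Hcls1 a signalling protein of blood cells, and both were also lowest at 8 months, at 4.86 and 3.78. With 4 points a near profile is a weak likeness. The other members were no nearer to Ddit4 than 1.223, the value of Sesn1.

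Markers of macrophages were also lowest at 8 months and are given beside Ddit4. All 10 markers on the list were measured above the filter. All 10 were lower at 8 than at 4 months, with a median of -0.425, where 5641 of 11587 kept genes were lower. Of the 10, 1 was at least 1.5-fold lower, against 0.354% of kept genes. All 10 were higher at 13 than at 8 months, by a median of 0.45, where 5812 of 11587 kept genes were higher. Their mean level was 7.48, 6.97, 7.63 and 8.25 at the 4 ages. Clec4f, a receptor of Kupffer cells, the resident macrophages of the liver, was at 8.20, 7.84, 8.14 and 8.71. All 10 were also higher at 21 than at 4 months, by at least 0.51, where Ddit4 differed by 0.17. All 7 hepatocyte markers above the filter were also lower at 8 vs 4 months. Their median was -0.06, with Tat, which encodes a tyrosine-degrading enzyme, lowest at -0.66. The 7 sinusoidal endothelium markers had a median of -0.04, and among them Lyve1, a hyaluronan receptor, was low at 8 months, at 6.81, 5.89, 6.36 and 6.66. In pooled whole liver, fewer cells of a type and less RNA per cell cannot be told apart, and the part of the macrophage genes in the Ddit4 result was not tested.

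**Figure D3:**
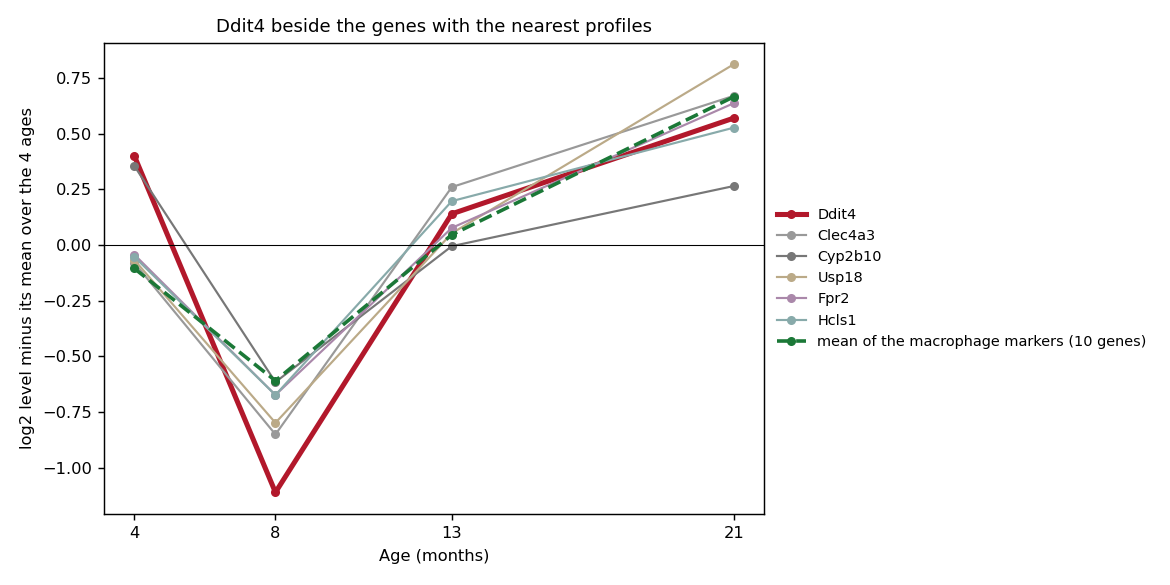
The y axis is the log2 level minus its own mean over the 4 ages, and the x axis is age in months, 1 pool per point. Ddit4 (thick red) is at -1.11 at 8 months, deeper than each of the 5 genes with the nearest profiles (thin lines) and than the mean of the 10 macrophage markers (dashed green), which is at -0.609. At 4 months Ddit4 and Cyp2b10 are above their means, by 0.40 and 0.355, and the other 4 genes and the macrophage mean are not.

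Around the members, 6 lists of pathway partners held 70 distinct kept genes. Of these, 0 were at least 1.5-fold higher or lower at 8 vs 4 months, where 0.501% of all kept genes were higher and 0.354% lower, so that with 70 genes a count of 0 is near the background. The count was also 0 for 13 vs 8 months, beside 0.716% higher and 0.362% lower of all kept genes, and for 21 vs 4 months, beside 2.11% and 0.423%. At 21 vs 13 months 0 were higher (1.47%) and 2 lower (0.457%), Prkab2 and Irs2. The medians over the 70 genes were 0.01, -0.015, -0.005 and 0.01 at 8 vs 4, 13 vs 8, 21 vs 13 and 21 vs 4 months.

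By role, the other subunits of the mTOR complexes were 9 listed genes, 8 of them kept. Mlst8, which binds the kinase domain, was at 4.28, 4.60, 4.39 and 4.37, the inhibitor Akt1s1 (PRAS40) at 7.81, 7.84, 7.87 and 7.70, and the inhibitor Deptor at 9.29, 9.28, 9.25 and 9.25. The widest difference in this list was that of Prr5l, an mTORC2-binding protein, at 4.44, 4.15, 4.18 and 4.49. Of 14 genes of the growth factor and Rheb branch 11 were kept. Rheb, the direct activator of mTORC1, was at 9.38, 9.42, 9.48 and 9.38, and Irs2, an insulin receptor substrate, was lowest at 21 months, at 4.92, 4.99, 5.19 and 4.60. Of 29 amino acid sensing genes 25 were kept. At 8 vs 4 months 17 were higher and 7 lower, with a median of 0.07, where 5507 of 11587 kept genes were higher and 5641 lower. At 21 vs 4 months 13 were higher and 12 lower, beside 5959 and 5237 of the kept genes. Wdr24, a subunit of the GATOR2 complex that sestrins bind, was at 5.97, 5.76, 6.21 and 6.27, and its difference of -0.21 at 8 vs 4 months is inside the bound of 0.40 for probe set disagreement. The other GATOR2 subunits did not share a direction in that pair, with 0.31 for Mios, 0.09 for Sec13, -0.07 for Wdr59 and -0.12 for Seh1l. Castor2, from the family of an arginine sensor, was lowest at 13 months, at 3.98, 4.16, 3.78 and 4.00. Sesn3, the remaining sestrin, was at 6.68, 6.84, 6.63 and 6.64, and so was not low at 8 months.

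The list of AMPK, the energy sensor that activates TSC2, and of the LKB1 complex that activates AMPK had 8 kept genes of 10. The regulatory AMPK subunit Prkab2 was at 4.00, 3.90, 4.35 and 3.66, at -0.69 for 21 vs 13 months, with the last value below the filter, while Prkab1 was at 6.69, 6.76, 6.81 and 7.01, higher at each step. The catalytic subunit Prkaa2 was lower at each step, at 8.01, 7.95, 7.89 and 7.75. The 10 kept genes of translational outputs, such as Rps6kb2, the other S6 kinase, at 5.99, 5.78, 5.98 and 5.88, and the elongation factor Eef2 at 10.59, 10.48, 10.71 and 10.75, had medians within 0.06 of 0. The 8 ULK and TFEB genes, which mTORC1 restrains in autophagy and lysosome control, had a median of 0.035 at 8 vs 4 months, -0.065 at 13 vs 8 months and 0.075 in each of the later pairs, 21 vs 13 and 21 vs 4. In that list Mitf was the most variable, at 4.89, 5.01, 4.68 and 5.14.

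**Figure D4:**
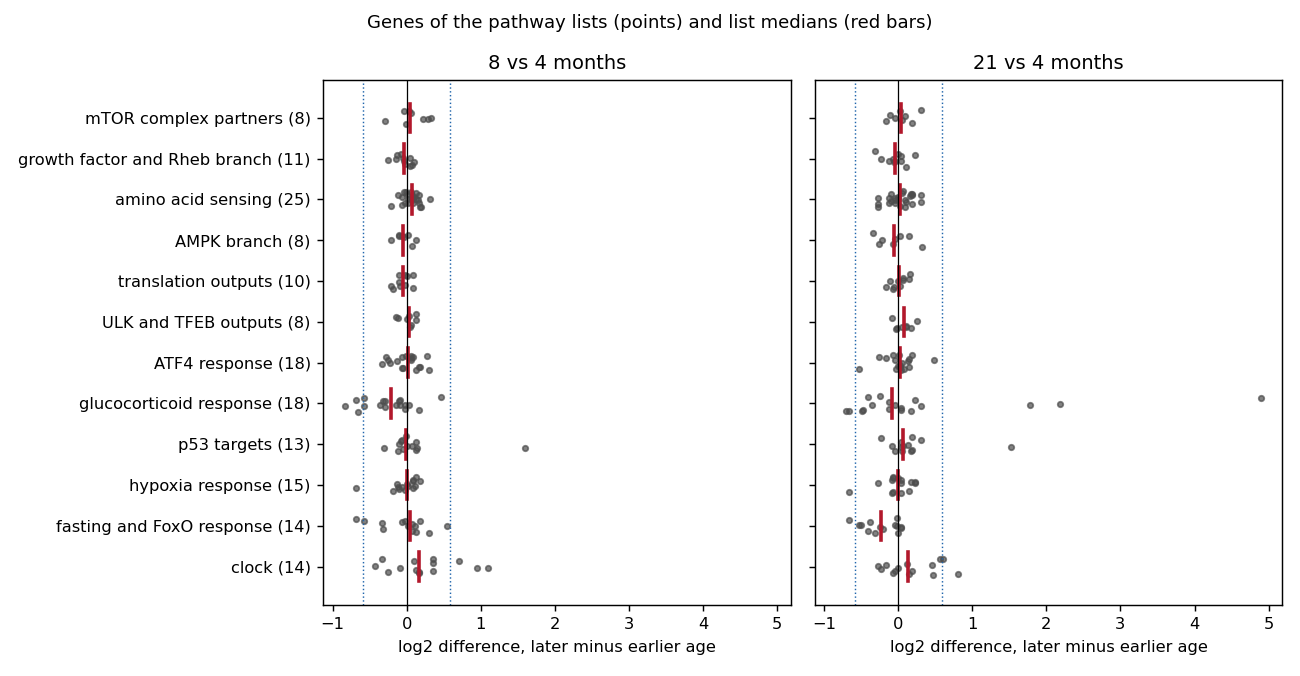
Points are single genes of 12 lists (number of kept genes in parentheses on the y axis), red bars are list medians, and the x axis is the log2 difference for 8 vs 4 months (left) and 21 vs 4 months (right), with blue dotted lines at 1.5-fold. The 6 upper lists of pathway partners stay between the dotted lines in both panels. The glucocorticoid response list has its median at -0.22 at 8 vs 4 months, which is -0.092 when each gene is the mean of its probe sets.

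Ddit4 is known to be induced by glucocorticoids, hypoxia, ATF4 and p53, and genes of these responses were read beside it. Of 18 glucocorticoid-responsive genes, all kept, 15 were lower at 8 vs 4 months, where 5641 of 11587 kept genes were. The 3 higher were Lcn2 at 0.46, Klf9 at 0.17 and Nr3c1 at 0.03. The median was -0.22, which was -0.092 when each gene was the mean of its probe sets. At 13 vs 8 months 15 were higher and 3 lower, with a median of 0.16, where 5812 of 11587 kept genes were higher. At 8 vs 4 months, past 1.5-fold 3 were lower, against 0.354% of kept genes, and 0 higher (0.501%). Tsc22d3, which encodes the glucocorticoid-induced leucine zipper protein GILZ, was at 8.54, 7.70, 7.83 and 7.83 at the 4 ages. It was lower at 8 months like Ddit4 but stayed low afterwards, at -0.71 for 21 vs 4 months. Igfbp1, an insulin-repressed binding protein of IGFs, was at 10.76, 10.08, 10.42 and 10.35, and Tat at 11.47, 10.81, 11.07 and 11.12. Just under 1.5-fold lower at 8 vs 4 months, and partly back at 13 months, were Lpin1, a phosphatidate phosphatase, at 10.06, 9.48, 9.81 and 9.59, and Ppargc1a, a coactivator of gluconeogenic genes, at 6.08, 5.50, 5.93 and 5.83. Zbtb16 was low at 13 months, at 7.62, 7.47, 6.81 and 7.50, and Dusp1, a phosphatase of MAP kinases, was also lowest there, at 9.41, 9.12, 8.78 and 8.92. Fkbp5, an induced co-chaperone of the receptor, was at 8.26, 8.17, 8.44 and 8.13, and Per1 at 6.42, 6.33, 6.66 and 6.37. At 21 vs 4 months 3 of the 18 genes were at least 1.5-fold higher (2.11% of kept genes) and 2 lower (0.423%). Lcn2, Mt1 and Mt2, which glucocorticoids and inflammation both induce, were highest at 21 months, and Lcn2 was at 9.78 at 21 months, against 4.88 at 4 months.

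The lists are given side by side, and differences between them were not tested. The 15 kept hypoxia genes had a median of 0.00 at 8 vs 4 months, with 7 higher and 7 lower, and 1 was at least 1.5-fold lower (0.354% of all kept genes). This was P4ha1, a collagen prolyl hydroxylase, at 6.06, 5.38, 5.22 and 5.40, which was low at all later ages. The 18 kept ATF4 genes had a median of 0.02 at 8 vs 4 months with 9 higher and 9 lower. In that list Chac1, a glutathione-degrading enzyme, was highest at 21 months, at 5.87, 5.74, 5.97 and 6.35. The 13 kept p53 targets had a median of -0.01, or -0.07 with the mean over probe sets, and 1 was at least 1.5-fold higher (0.501% of all kept genes). Gadd45a, a growth arrest gene, was at 5.15, 6.74, 6.52 and 6.67, higher at 8, 13 and 21 months than at 4 months. The 14 fasting and FoxO genes had a median of 0.04 at 8 vs 4 months and -0.23 at 21 vs 4 months. At 21 vs 4 months 2 were higher and 11 lower, where 5959 of 11587 kept genes were higher and 5237 lower. Pdk4, which spares glucose by blocking pyruvate oxidation, was at 4.69, 5.23, 5.17 and 4.19, Fgf21, a fasting hormone that is also in the ATF4 list, at 4.93, 5.23, 5.22 and 4.40, and Angptl4, an inhibitor of lipoprotein lipase, at 9.18, 8.86, 8.88 and 8.51.

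Clock genes also differed between the 4-month and the 8-month pool, and the sources used here do not give the hour at which livers were taken. Of 14 kept clock genes 3 were at least 1.5-fold higher at 8 vs 4 months (0.501% of kept genes) and 0 lower. Dbp, an output regulator of the clock, was at 7.98, 9.07, 9.14 and 8.79, Ciart at 4.98, 5.93, 5.82 and 5.54, and Per3 at 5.08, 5.79, 5.93 and 5.68. Arntl, which encodes BMAL1, was at 6.09, 5.66, 5.44 and 5.85. At 13 vs 8 months, where Ddit4 was 2.38-fold higher, Dbp differed by 0.07, Ciart by -0.11, Per2 by 0.48, Per1 by 0.33, Arntl by -0.22, Nr1d1 by -0.29 and Bhlhe40 by -0.51. RNA integrity, read as the 3′ minus 5′ difference of control probe sets, was 0.11 to 0.21 for Gapdh and 1.01 to 1.16 for β-actin over the 4 arrays. The part of the hour of collection, of feeding or of any other difference between the pools in the Ddit4 result was not tested, and with 1 pool per age it cannot be told apart from age.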

How the data were processed

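Liver RNA of 4 ages was measured on 4 arrays, 1 pool of 6 mice per age, and samples were grouped by labelled age. The authors deposited log2 values of 45101 probe sets, from 1.22 to 13.7, made with RMA (background correction, normalization between arrays, summary per probe set) per the submitters' processing notes. The sources used here do not state its version. RMA brings array distributions together and compresses dim values, and no detection calls were used.

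Of the probe sets 34945 had 1 gene symbol in the platform annotation, 932 several, 9160 none here, and 64 were controls. Symbols were checked by gene identifier for 34741, which changed 0. The probe set with the highest mean stood for a gene. No test was run. Counts used 1.5-fold, and 11587 kept genes are their background. The members and lists were chosen with earlier results of these data known. Named genes are the members, the 5 nearest profiles, and up to 4 genes past 1.5-fold per list in any pair of ages, or else its extremes. Mlst8, Akt1s1, Deptor, Rheb, Sesn3, Prkab1, Prkaa2, Mios, Sec13, Wdr59, Seh1l, Fkbp5, Per1, Lpin1, Ppargc1a, Zbtb16, Dusp1, Klf9, Nr3c1, Per2, Nr1d1, Bhlhe40, Tat, Igfbp1 in the glucocorticoid list, Clec4f, Lyve1, Dcn, S100a8, S100a9, Ngp, Elane, Ighm, Jchain, Ms4a1, Marco and Gbp2b were named after their values were seen. Angptl4, Cdkn1a, Fgf21, Igfbp1, Irs2, Pck1, Per1, Ppargc1a and Sgk1 are in 2 lists, and Tat is also a hepatocyte marker. Of the marker lists not quoted, bile duct, T and NK cell, erythroid and muscle and fat had at most 2 kept genes. Steps were tested on simulated data. Alternatives were the mean over probe sets, other filters, centring, quantile normalization, cyclic loess and size thresholds of 0.32 and 1 on the log2 scale. Normalizations were run in limma 3.58.1 under R 4.3.3, and all else in Python 3.11.15 with pandas 2.3.3, numpy 2.4.6 and, for plots, matplotlib 3.10.9.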

Additional observations from a re-analysis of the deposited data

How the results depend on the processing

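The count of members past 1.5-fold was the same in 31 of 32 alternatives over the 4 main pairs of ages. The exception was the lower size threshold, 0.32 on the log2 scale in place of 0.58, which at 21 vs 13 months gave 1 member, Ddit4 at 0.43, in place of 0. Not all of the 32 could differ, since all 9 members passed the filter and leaving it out could not change the count. Across centring, quantile normalization and cyclic loess, Ddit4 differed by -1.52 to -1.50 at 8 vs 4, 1.24 to 1.26 at 13 vs 8, 0.39 to 0.45 at 21 vs 13 and 0.13 to 0.19 at 21 vs 4 months. The mean over probe sets could not change the Ddit4 values, as Ddit4 has a single probe set. The deposited values were already normalized between arrays, so these further normalizations are a weak check. Of the alternative list medians 24 moved by more than a bound, and 216 did not. The bound was the SD of a difference for a single probe set, 0.14 at 8 vs 4 months, over the root of the number of genes. That SD was derived from the disagreement between probe sets of the same gene. With the mean over probe sets, at 8 vs 4 months the medians became -0.092 for glucocorticoid genes (from -0.22), 0.02 for the growth factor and Rheb branch (from -0.04), 0.03 for amino acid sensing (from 0.07), 0.00 for translation outputs (from -0.055), -0.055 for ULK and TFEB (from 0.035) and -0.07 for p53 targets (from -0.01). At 13 vs 8 months they became -0.021 for amino acid sensing (from -0.07), 0.003 for AMPK (from 0.11), 0.05 for ULK and TFEB (from -0.065) and -0.058 for clock genes (from 0.04). At 21 vs 13 months they became -0.02 for translation outputs (from 0.045), 0.105 for p53 targets (from 0.06), -0.025 for hypoxia (from 0.02) and -0.138 for clock genes (from -0.225). At 21 vs 4 months they became 0.05 for amino acid sensing (from 0.02), 0.017 for ULK and TFEB (from 0.075) and 0.05 for hypoxia (from 0.00). Quantile normalization gave -0.055 for amino acid sensing at 21 vs 13 (from -0.02), -0.076 for ATF4 at 13 vs 8 (from -0.04), and at 21 vs 4 months -0.049 for translation outputs (from 0.005), -0.126 for glucocorticoid genes (from -0.085) and 0.097 for clock genes (from 0.135). Without a filter ATF4 at 8 vs 4 months was at -0.02 (from 0.02) and clock genes at 21 vs 4 months at 0.00 (from 0.135). The cause of these shifts was not tested. The 5 nearest genes to Ddit4 were the same 5 under both other measures. No paired analysis was possible because each age has 1 array. The arrays' signal over background is unknown without detection calls, so probe sets near 3.74 are uncertain.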

Other observations

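Among the marker lists, stellate cell markers had medians of 0.06 at 8 vs 4 months and 0.19 at 21 vs 4 months over 6 genes, with Dcn, a matrix proteoglycan, at 9.72, 9.70, 9.88 and 10.16 at 4, 8, 13 and 21 months. Neutrophil markers, 4 of them above the filter, were split at 21 vs 4 months. The calprotectin subunits S100a8 and S100a9 differed by 1.35 and 1.45, and the granule genes Ngp and Elane by 0.19 and -0.11. The 3 B and plasma cell markers above the filter differed at 21 vs 4 months by 2.84 for Ighm, 1.58 for Jchain and 0.18 for Ms4a1. Jchain, which joins immunoglobulin subunits, was at 4.60, 4.95, 4.73 and 6.18. In that pair 5959 of 11587 kept genes were higher. The differences of Ngp and Ms4a1 were inside the bound of 0.42 for probe set disagreement. Ddit4 differed by 0.17, and the other 8 members had a median of -0.11.

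Rictor and Tsc1 each had a probe set whose difference at 21 vs 4 months was larger in size than that of the brightest one. For Rictor the signs were opposite, 0.55 against -0.11, and for Tsc1 they were the same, -0.68 against -0.23.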
